A study of Mus musculus with 6 samples.

Results

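The Asb genes described here encode adaptors of the ankyrin repeat and SOCS box family. The 10 genes Asb2, Asb4, Asb5, Asb8, Asb10, Asb11, Asb12, Asb14, Asb15 and Asb18 were taken by symbol from 22036 genes counted in mouse quadriceps femoris, a thigh muscle. They were picked from the 18 Asb genes in the table because several of them had lower counts in Prr14-KO than in Prr14-WT muscle. The difference between genotypes in these 10 genes is therefore a description and carries no test. The study compared 3 libraries of Prr14-WT mice (WT replicates 1 to 3) with 3 libraries of Prr14-KO mice (KO replicates 1 to 3), read as nanopore cDNA. PRR14 tethers heterochromatin to the nuclear lamina. The labels give neither the strain, age and sex of the mice nor the way the allele was made, and nothing beyond the sample titles says that each library came from a separate animal, so any p-value measures the spread between these libraries.

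An ASB protein bridges a substrate and an E3 ubiquitin ligase. Its ankyrin repeats bind the substrate, and its SOCS box binds elongin B and elongin C, which recruit cullin 5 and the RING protein RNF7, so that the bound substrate is tagged with ubiquitin. Several family members are expressed mainly in skeletal muscle or heart. ASB2, the best studied, directs filamins for degradation while muscle cells differentiate, and raising it in mouse muscle lowers muscle mass.

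Libraries held 1436099 to 1712975 listed read counts. The targeted gene Prr14 had 9, 11 and 12 counts in WT and 4, 10 and 3 counts in KO. In raw counts, the library labelled KO replicate 2 thus lay within the WT range. Its scaled library size (1601035) was larger than those of WT (1370624 to 1467232). The labels do not say which part of the gene was deleted, so these reads need not check the label. Muscle fibre markers made up 149700 to 188800 CPM (counts scaled to a common library size) in WT and 106700 to 121500 CPM in KO, and 4 of the 10 tested fell (Acta1, Ttn, Neb and Myh4, edgeR adjusted p up to 0.0138), against 3.28% of all tested genes, while DESeq2 and limma-voom each called 5 of them. No gene of the fibroblast, macrophage, endothelial, adipocyte, smooth muscle, nerve, satellite cell or red blood cell marker lists passed edgeR's quasi-likelihood test (0 of 26 tested, with 2 at an unadjusted p under 0.05), and DESeq2 and limma-voom called 0 of them as well. Smooth muscle markers summed to 224 to 267 CPM in WT and 280 to 371 CPM in KO, without overlap, and their part in the results was not tested. Of the satellite cell markers, Pax7 and Myf5 had 0 to 3 counts in every library, and Cdh15 had 24, 9 and 31 counts in WT and 7, 7 and 18 in KO (log2 fold change -1.21, not past the threshold). The Y-linked genes Ddx3y and Eif2s3y were read in all 6 libraries, with 45.5 ± 4.02 CPM (WT) and 53.0 ± 8.09 CPM (KO) for Eif2s3y (SD, n = 3 each), which bears on Asb11 and Asb12 because both are X-linked. In a bulk sample, fewer cells of a type and less RNA per cell cannot be told apart.

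The start regions of 4 members are shown, from the largest deficits (Asb15, Asb5, Asb14) to a gene at nearly the same level in both genotypes (Asb12). Asb2 and Asb8, whose log2 fold changes were positive (0.70 and 0.21), are not shown. Nor is the most downstream Asb5 window, which begins at 54577201. Each is the RefSeq promoter window on GRCm38.p6, 250 bases before to 50 bases after an annotated start, printed 5′ to 3′ on the gene's own strand. The windows are chr6:24527894-24528193 (plus strand, Asb15), chr8:54550081-54550380 and chr8:54571189-54571488 (plus strand, the upstream and the middle start of Asb5), chr14:26894364-26894663 (plus strand, Asb14) and chrX:95478080-95478379 (minus strand, Asb12). Capitals mark matches, on either strand, to the E-box CANNTG (which includes CAGCTG, the form preferred by MyoD and myogenin), the MCAT box CATTCC and the MEF2 consensus, the binding motif of the MEF2 family, whose member MEF2C the series title names.
Asb15: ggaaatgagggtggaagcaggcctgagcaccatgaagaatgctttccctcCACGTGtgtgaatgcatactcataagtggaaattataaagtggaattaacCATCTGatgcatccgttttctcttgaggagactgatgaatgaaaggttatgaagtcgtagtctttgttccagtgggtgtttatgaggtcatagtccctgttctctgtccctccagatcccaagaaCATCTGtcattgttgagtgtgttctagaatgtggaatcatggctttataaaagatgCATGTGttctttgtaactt
Asb5 upstream start: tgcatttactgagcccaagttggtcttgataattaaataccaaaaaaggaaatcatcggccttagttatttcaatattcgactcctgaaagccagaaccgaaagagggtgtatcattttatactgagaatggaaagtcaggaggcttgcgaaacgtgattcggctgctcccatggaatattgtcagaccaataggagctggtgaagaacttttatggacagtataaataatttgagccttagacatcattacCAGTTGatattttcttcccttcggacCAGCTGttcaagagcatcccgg
Asb5 middle start: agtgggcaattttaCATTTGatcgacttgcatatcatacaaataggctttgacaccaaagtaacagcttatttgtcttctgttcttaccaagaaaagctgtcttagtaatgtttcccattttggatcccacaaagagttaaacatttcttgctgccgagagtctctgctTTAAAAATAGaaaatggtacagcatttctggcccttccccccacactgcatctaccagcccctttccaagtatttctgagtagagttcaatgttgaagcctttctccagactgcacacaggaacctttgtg
Asb14: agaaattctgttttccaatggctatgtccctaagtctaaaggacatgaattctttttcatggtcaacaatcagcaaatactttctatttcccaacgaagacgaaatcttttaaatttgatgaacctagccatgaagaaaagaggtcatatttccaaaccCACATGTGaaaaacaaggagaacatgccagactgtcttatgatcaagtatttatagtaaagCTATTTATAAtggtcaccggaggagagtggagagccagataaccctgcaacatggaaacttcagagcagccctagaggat
Asb12: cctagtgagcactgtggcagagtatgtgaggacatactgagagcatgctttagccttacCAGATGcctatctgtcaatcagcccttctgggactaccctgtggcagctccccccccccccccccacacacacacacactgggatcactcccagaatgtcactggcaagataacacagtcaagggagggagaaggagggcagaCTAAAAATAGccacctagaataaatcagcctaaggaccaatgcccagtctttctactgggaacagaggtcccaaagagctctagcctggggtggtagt

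RefSeq lists 15 such windows for the 10 members, and all 10 were matched. The MEF2 consensus was found in 4 of the 15, one each for Asb5, Asb12, Asb14 and Asb18, while 3.19% of all 32851 mouse promoter windows hold it. The windows printed above include all of these but that of Asb18, so they do not stand for all 15. CAGCTG was found in 3 of the 15 (16.3% of all windows), the MCAT box in 2 (14.7%) and any CANNTG in 13 (72.3%). The MEF2 match began at offset -30 in Asb14, -48 in Asb12, -11 in Asb18 and -81 at the middle start of Asb5, where offset 0 is the first base after the 250 upstream bases. The Asb15 window held 4 E-boxes, at offsets -200, -150, -25 and 31, and no match to the MEF2 consensus. The upstream Asb5 start held CAGCTG at offset 28. Matches describe letters in a window, and genes with a MEF2 match were found both far lower in KO (Asb5, Asb14) and at nearly the same level (Asb12).

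Asb15 and Asb5 had the largest deficits in KO muscle. Asb15 (ENSMUSG00000029685, GRCm38 chromosome 6, 24528144 to 24573164, plus strand, protein coding) has been linked to differentiation and protein turnover in cultured muscle cells. WT replicates 1 to 3 held 33, 43 and 47 Asb15 counts, and KO replicates 1 to 3 held 5, 3 and 0. Every WT library lay far above every KO library, and 1 KO library held no read, where 3 counts would be 1.72 CPM. Asb15 stood at 28.5 ± 4.11 CPM (WT) and 1.64 ± 1.54 CPM (KO) (SD, n = 3 each), 5.77% of the WT level. The KO mean was below the level of 3 counts in a KO library (1.72 to 1.87 CPM), so this percentage is rough. The fitted log2 fold change was -4.08 (SE 0.46), the 4th lowest of the 6680 genes tested. Asb15 met the minimum count only in the WT libraries. Leaving out 1 library at a time, its log2 fold change ran from -4.87 without KO replicate 1 to -3.49 without KO replicate 3, the library with no read.

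Asb5 (ENSMUSG00000031519, chromosome 8, 54529580 to 54587842, plus strand, protein coding), first studied in rabbit arteries as they grow, was the member with the most CPM per kilobase of exon in WT. Without division by length, Asb5 (355 ± 37.5 CPM) and Asb2 (319 ± 78.7 CPM) were closer in WT than either SD. WT replicates 1 to 3 held 438, 515 and 576 Asb5 counts, and KO replicates 1 to 3 held 61, 24 and 35. The WT libraries lay close together (320 to 394 CPM), and the highest KO library held far fewer reads than the lowest WT library. The level went from 355 ± 37.5 CPM to 24.1 ± 11.7 CPM, so KO muscle held 6.80% of the WT level. The fitted log2 fold change was -3.88 (SE 0.27), the 7th lowest of all genes tested. Asb5 shares exon sequence with Spcs3 on the opposite strand, and no source used here says whether the counting used strand. Spcs3, whose KO libraries all lay above its WT libraries (WT 57.9 ± 4.19 CPM, KO 70.0 ± 6.56 CPM), did not pass (log2 fold change 0.27, edgeR adjusted p = 0.369).

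Asb14 (ENSMUSG00000021898, chromosome 14, 26894557 to 26915258, plus strand, protein coding) was also far below WT. It had 133, 112 and 172 counts in WT and 16, 32 and 29 counts in KO. The lowest WT library was 76.3 CPM and the highest KO library 19.99 CPM, so the genotypes did not overlap. The level went from 97.0 ± 20.7 to 15.5 ± 5.19 CPM, a log2 fold change of -2.64 (SE 0.24), the 16th lowest of all genes tested.

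**Figure D1:**
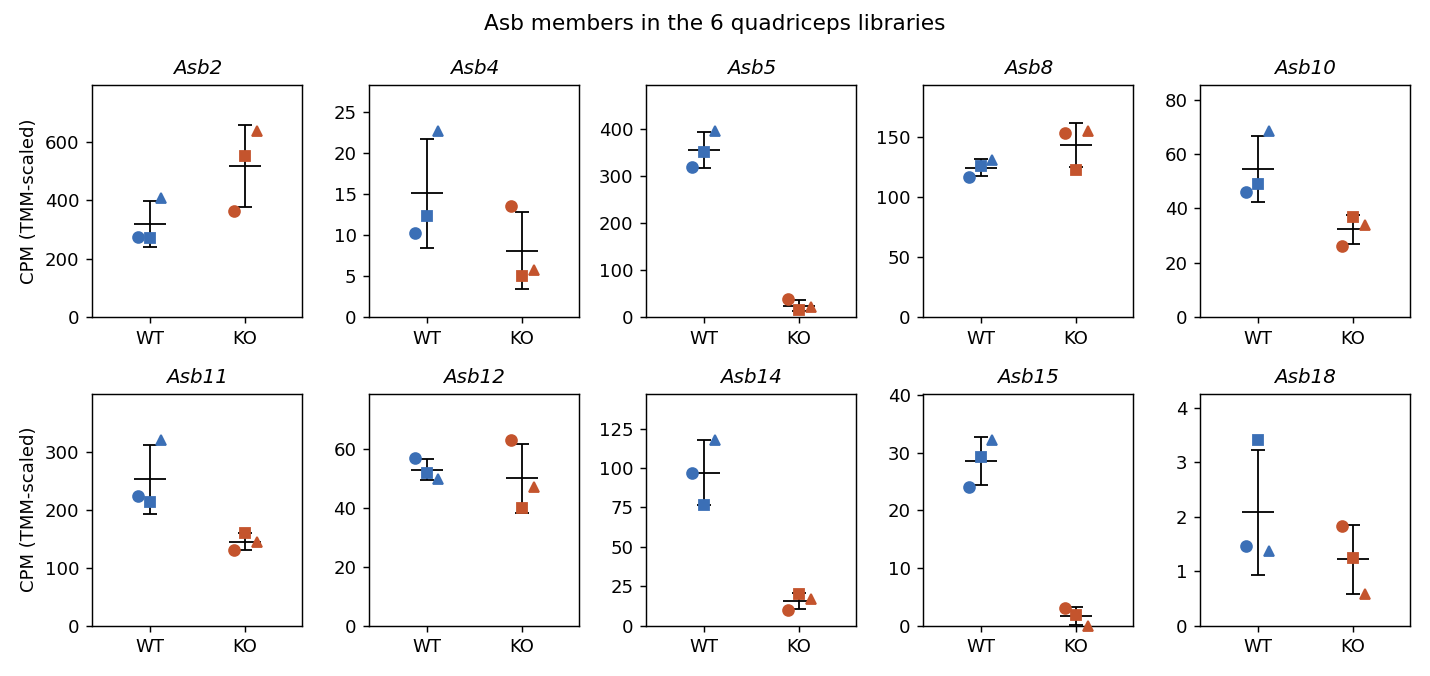
Level of each of the 10 Asb members in each library, in CPM on TMM-scaled library sizes, with 1 panel and 1 linear axis from 0 per gene. Circles, squares and triangles are replicates 1, 2 and 3, and the black bar is the mean with its SD (n = 3). The KO points of Asb5, Asb14 and Asb15 lie at the bottom of their panels, those of Asb10 and Asb11 lie below all WT points, and the groups overlap in the other 5 panels.

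Asb11 and Asb10 were lower by a smaller amount and moved closely together across the 6 libraries. Asb11 (ENSMUSG00000031382, chromosome X, 164436994 to 164459170, plus strand), whose zebrafish counterpart promotes Notch signalling by ubiquitinating Delta and keeps progenitor cells dividing, had 305, 313 and 467 counts in WT and 213, 255 and 252 counts in KO. On the CPM scale the lowest WT library was 213 and the highest KO library 159, so the genotypes did not overlap. Asb11 stood at 252 ± 58.9 CPM (WT) and 145 ± 14.5 CPM (KO), 57.4% of WT, with a log2 fold change of -0.80 (SE 0.16). Asb10 (ENSMUSG00000038204, chromosome 5, 24532697 to 24540978, minus strand) had 63, 72 and 100 counts in WT and 43, 59 and 59 counts in KO. Its levels, 54.5 ± 12.2 and 32.3 ± 5.42 CPM, gave a log2 fold change of -0.75 (SE 0.21), again with no overlap between genotypes. The ratio of Asb10 to Asb11 counts within a library, which does not depend on scaling, was 0.207, 0.230 and 0.214 in WT and 0.202, 0.231 and 0.234 in KO. The ratio thus covered the same range in both genotypes.

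Asb4 and Asb18 were read too little for their levels to be compared closely. Asb4 (ENSMUSG00000042607, chromosome 6), an imprinted gene in the mouse with a role in the placental vasculature, had 14, 18 and 33 counts in WT and 22, 8 and 10 counts in KO. KO replicate 1 lay above WT replicates 1 and 2, so the genotypes overlapped, and the log2 fold change of -0.90 had an SE of 0.42. It ran from -1.47 without KO replicate 1 to -0.49 without WT replicate 3. Asb18 (ENSMUSG00000067081, chromosome 1) had 2, 5 and 2 counts in WT and 3, 2 and 1 counts in KO, too few to pass the filter. Its level of 2.08 ± 1.15 CPM in WT is near the 3 counts taken here as the floor (1.72 to 2.19 CPM in a library).

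Asb8 and Asb12 were at similar levels in both genotypes. Asb8 (ENSMUSG00000048175, chromosome 15, 98134637 to 98165625, minus strand) had 160, 184 and 191 counts in WT and 250, 196 and 270 counts in KO. On the CPM scale KO replicate 2, at 122, lay between the WT libraries, at 117 to 131, and the log2 fold change was 0.21 (SE 0.14), or 0.44 with library totals in place of TMM. Asb12 (ENSMUSG00000031204, chromosome X, 95470201 to 95557987, minus strand) had 78, 76 and 73 counts in WT and 103, 64 and 82 counts in KO. Its WT libraries were among the tightest of the family (52.9 ± 3.59 CPM) and lay inside the range of the KO libraries (49.99 ± 11.8 CPM). The log2 fold change of Asb12 was -0.08 (SE 0.19), and its sign turned with library totals (0.15) and without KO replicate 2 (0.05).

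Asb2 was the member with the highest mean in KO and lay above its WT mean. Asb2 (ENSMUSG00000021200, chromosome 12, 103321142 to 103356001, minus strand) had 375, 400 and 598 counts in WT and 593, 886 and 1113 counts in KO. Asb2 stood at 319 ± 78.7 CPM (WT) and 518 ± 141 CPM (KO), a log2 fold change of 0.70 (SE 0.25). KO replicate 1, at 363 CPM, lay below WT replicate 3, at 409 CPM, so the genotypes overlapped in those 2 libraries. Leaving out 1 library at a time, the log2 fold change ran from 0.52 without KO replicate 3 to 0.92 without WT replicate 3. The genotypes did not overlap without KO replicate 1 (0.90) or without WT replicate 3. Asb2 has 2 annotated starts in the RefSeq windows, and counts per gene do not tell their transcripts apart.

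The make-up of Asb reads differed accordingly between the genotypes. Of all counts of the 18 Asb genes in a library, Asb5 took 24.9 to 28.7% in WT and 1.51 to 4.45% in KO. Asb2 took 22.3 to 25.9% in WT and 43.3 to 58.6% in KO. Asb5 reads per Asb2 read numbered 1.17, 1.29 and 0.963 in the 3 WT libraries, against 0.103, 0.0271 and 0.0315 in the 3 KO libraries. This ratio needs no scaling, and the lowest WT library lay far above the highest KO library. Against Asb11, which itself was lower, Asb5 had a ratio of 1.44 ± 0.206 in WT and 0.173 ± 0.101 in KO, and Asb14 one of 0.387 ± 0.0425 and 0.105 ± 0.0266. The sum over all 18 Asb genes was 1338 ± 212 CPM (WT) and 973 ± 125 CPM (KO), with no overlap (1208 to 1583 CPM against 839 to 1087 CPM). The TMM factors behind this scale were 0.862 to 0.9695 in WT and 1.055 to 1.108 in KO. Raw sums, not adjusted for depth, overlapped (1655 to 2312 counts in WT, 1371 to 1898 in KO). Most of the sum came from the members picked for falls (1300 ± 214 CPM in WT, 939 ± 131 CPM in KO).

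**Figure D2:**
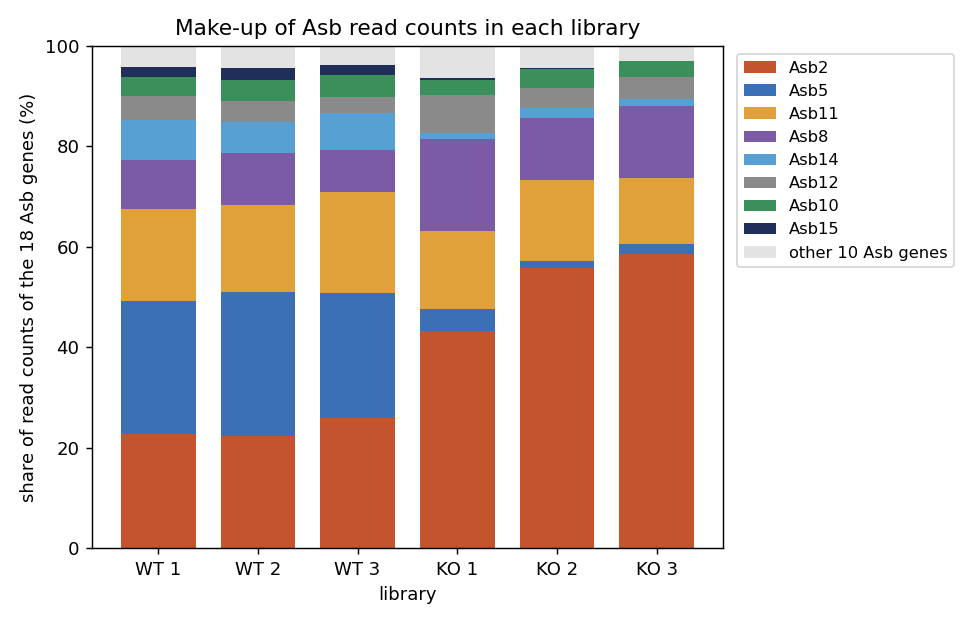
Share of each Asb gene in the read counts of all 18 Asb genes, in percent, as 1 stacked bar per library. In the 3 WT bars Asb5 takes 24.9 to 28.7% and Asb2 22.3 to 25.9%, and in the 3 KO bars Asb5 takes 1.51 to 4.45% and Asb2 43.3 to 58.6%.

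Levels of different genes were compared per kilobase of annotated exon. In WT the order was Asb5 (193 ± 20.4 CPM per kb), Asb2 (89.9 ± 22.2), Asb11 (88.5 ± 20.7), Asb8 (51.6 ± 2.94), Asb14 (38.1 ± 8.12), Asb12 (33.2 ± 2.26), Asb10 (19.4 ± 4.34), Asb15 (6.34 ± 0.913), Asb4 (3.82 ± 1.69) and Asb18 (0.526 ± 0.292), all in CPM per kb. Asb2 and Asb11 were closer to each other than either SD, and Asb14 and Asb12 differed by less than the SD of Asb14 but more than that of Asb12. In KO the order was led by Asb2 (146 ± 39.7 CPM per kb), Asb8 (59.5 ± 7.53) and Asb11 (50.8 ± 5.08), and Asb5 (13.1 ± 6.35) lay beside Asb10 (11.5 ± 1.93) within their SDs. Asb15 was at 0.366 ± 0.343 CPM per kb in KO, beside Asb18 at 0.309 ± 0.16, and both values rest on 5 or fewer counts in each KO library. A nanopore cDNA read usually covers a whole transcript, so the division by length can understate long genes.

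Of the 10 members, 9 passed the filter on low counts. Of these 9, 7 had a negative and 2 a positive log2 fold change, and their median was -0.80, against 0.017 over all 6680 tested genes. An edgeR adjusted p under 0.05 was reached by 5 as lower (Asb5, Asb10, Asb11, Asb14 and Asb15) and by 0 as higher; 3.28% of all tested genes were called lower and 2.98% higher, 6.26% in either direction. The same 5 did not overlap between genotypes as lower and 0 as higher, where 12.2% and 13.5% of all tested genes did so (25.8% in either direction). Since this contrast chose the members, these counts describe them and support nothing further. The 14 alternatives reuse the libraries that chose the members, so a call kept in them adds no support. Asb10 kept its call in 5 of 14, while Asb5, Asb11, Asb14 and Asb15 kept theirs in all 14. Asb15 met the minimum count only in the WT libraries. Asb10 lost its call with DESeq2, limma-voom, library totals and robust=FALSE. It also lost it without WT replicate 2, WT replicate 3, KO replicate 1, KO replicate 2 or KO replicate 3. Asb2 was called as higher in 3 of 14 (library totals, no filter, and without KO replicate 1). Without KO replicate 1 the number of non-overlapping members as lower was 8 of 10 rather than 5, and 16.3% of all tested genes then lay lower without overlap. The 8 include Asb18, which did not pass the filter and had 2, 5 and 2 counts in WT against 2 and 1 in KO replicates 2 and 3. As higher, 1 member did not overlap without WT replicate 3 or KO replicate 1 (Asb2) and without KO replicate 2 (Asb8), where 18.1 to 19.2% of all tested genes did so.

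**Figure D3:**
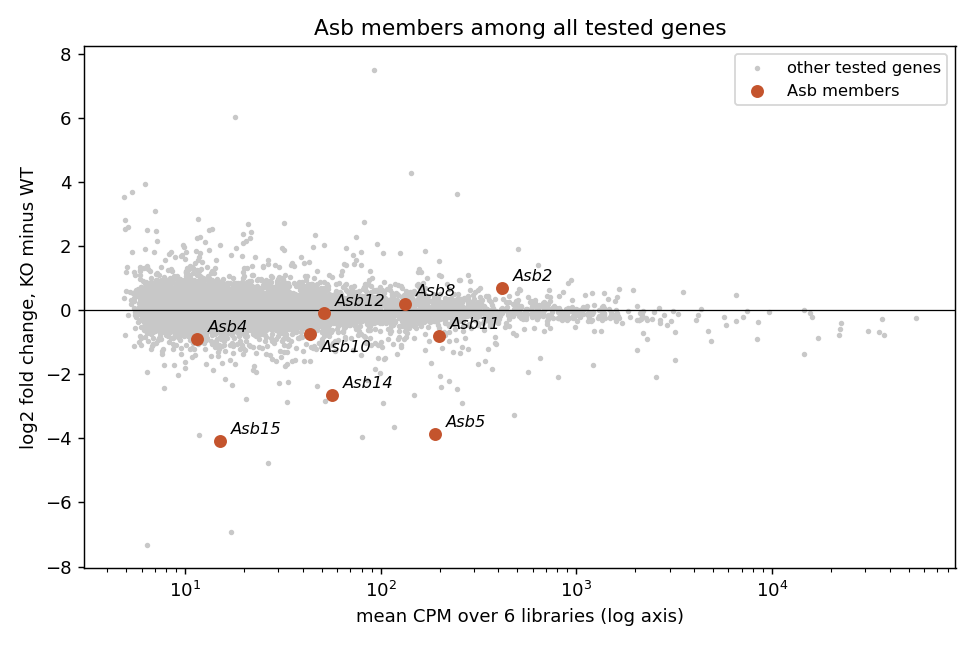
Log2 fold change (KO minus WT) of the 6680 tested genes against their mean level over 6 libraries, in CPM on a log axis. Grey points are other genes and orange points the 9 tested Asb members. Asb15, Asb5 and Asb14 lie at -4.08, -3.88 and -2.64 with few genes below them, while Asb12, Asb8 and Asb2 lie at -0.08, 0.21 and 0.70.

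Within WT most members were highest in the same library, and within KO they were not. WT replicate 3 held the highest CPM of 8 of the 10 members, and of 7 without TMM scaling. The share of all genes highest in that library was not computed, so this count cannot be called particular to the members. That library also had the largest share of counts in its 20 most abundant genes (44.8%, against 39.3 and 40.8% in WT replicates 1 and 2), and only 3 counts of the slow myosin gene Myh7, against 82 and 60. In KO the highest library was replicate 1 for 5 members, replicate 2 for 3 and replicate 3 for 2. KO replicate 2, with 135 Myh7 counts against 1 in each of the other KO libraries, was the lowest of the 3 for Asb5 and the highest for Asb14. Myh4, the fastest myosin heavy chain, went from 21073 ± 2343 to 8214 ± 1137 CPM (log2 fold change -1.36, edgeR adjusted p = 6.73e-06). Myh1 went from 4150 ± 981 to 982 ± 677 CPM without overlap but did not pass (log2 fold change -2.08, edgeR adjusted p = 0.157). Myh2 and Myh7 had log2 fold changes of -1.20 and -0.28 (edgeR adjusted p = 0.58 and 0.962), so the fall was not limited to Myh4. The part of fibre make-up in the Asb differences was not tested.

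The genes most like a member were those with the smallest root mean square difference in log2 CPM, centred on each gene's mean over the 6 libraries, among 3722 tested genes with a mean of at least 20 CPM. For Asb10 the nearest gene was Asb11 (difference 0.0825 on the log2 scale), and for Asb11 it was Asb10. Mbnl2, an RNA-binding splicing regulator, was also among the nearest 3 genes of both (0.119 and 0.0902). For Asb15 the nearest was Asb5 (0.527), followed by the myosin light chain kinase gene Mylk4 (0.590) and the tetraspanin gene Tspan8 (0.637). For Asb5 the nearest were Tspan8 (0.178), Mettl21c, a muscle methyltransferase gene (0.277), and Mylk4 (0.474). Asb15 and Asb4, with means below 20 CPM, were not candidates and could not be listed for any member. Tspan8 stood at 151 ± 12.1 CPM (WT) and 9.59 ± 3.67 CPM (KO). For Asb14 the nearest were Dmd, which encodes dystrophin (0.212), and the near-identical pair Amd2 and Amd1 (0.218 and 0.338), whose reads could be split between the copies. Asb2 was nearest to Dctn1, a dynactin subunit gene (0.116). For Asb8 and Asb12, which hardly differed between genotypes, the nearest genes were Eif2s3y (0.0412) and Ccnh (0.0558). These distances mostly reflect the genotype difference that 6 libraries share, so they describe the pattern and carry no test.

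The other 8 Asb genes were little expressed in this muscle. The level of Asb3 was 13.7 ± 3.19 CPM (WT) and 15.1 ± 3.17 CPM (KO), with a log2 fold change of 0.13 (SE 0.28; edgeR adjusted p = 0.852). Asb6 had 10.4 ± 1.79 and 10.1 ± 2.11 CPM, with a log2 fold change of -0.06 (SE 0.31; edgeR adjusted p = 0.951). Both signs turn in some alternatives, and Asb3 shares exon sequence with Gpr75 on the same strand. Only these 2 genes passed the filter, and edgeR called 0 of the 2, with 0 at an unadjusted p under 0.05 and 0 called by DESeq2 or limma-voom. Asb1, Asb7, Asb13 and Asb16 were too low to be tested, with 0 to 13 counts in a library, and Asb9 and Asb17 had 0 counts in all 6. These genes were left out when the members were picked, so the contrast with the members is partly built in.

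No gene of the ligase that the adaptors join passed the test. Elob and Eloc, which encode elongin B and elongin C, had 680 ± 88.7 and 226 ± 19.7 CPM in WT and 603 ± 18.7 and 190 ± 10.3 CPM in KO (log2 fold changes -0.17 and -0.24, edgeR adjusted p = 0.425 and 0.292). Cul5, the cullin scaffold, had 55.3 ± 1.70 and 43.5 ± 8.55 CPM (log2 fold change -0.34, edgeR adjusted p = 0.318). Rnf7, its RING partner, came closest to the threshold, with 253 ± 22.2 CPM in WT against 186 ± 18.5 CPM in KO and no overlap, a log2 fold change of -0.45 (SE 0.13; edgeR adjusted p = 0.052). Eloc, Cul5 and Ube2f also did not overlap, so 4 of the 9 tested partners lay lower without overlap and 0 higher, against 12.2% and 13.5% of all tested genes. With no filter on low counts Rnf7 passed (adjusted p = 0.028, range over 14 alternatives 0.028 to 0.28). Ube2f, the enzyme that attaches NEDD8 to cullin 5, had a log2 fold change of -0.34 (edgeR adjusted p = 0.207), and Arih2, a ligase that works with cullin 5, one of -0.21 (0.64). Nedd8, and Nae1 and Uba3 of its activating enzyme, had 0.00, 0.08 and 0.28 (edgeR adjusted p = 0.994, 0.845 and 0.618). Cand1, which exchanges cullin adaptors, had 2 to 12 counts and was not tested.

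Of the 9 partner genes tested, edgeR called 0 (2 at an unadjusted p under 0.05, 0 called by DESeq2 or limma-voom), and 6 had a negative and 3 a positive log2 fold change, with a median of -0.21. Partner log2 fold changes lay between -0.45 and 0.28, where those of Asb5, Asb14 and Asb15 were -3.88, -2.64 and -4.08. With library totals Elob and Arih2 turned positive. Exons of Cul5, Elob and Nedd8 overlap genes on the opposite strand in GENCODE M21.

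**Figure D4:**
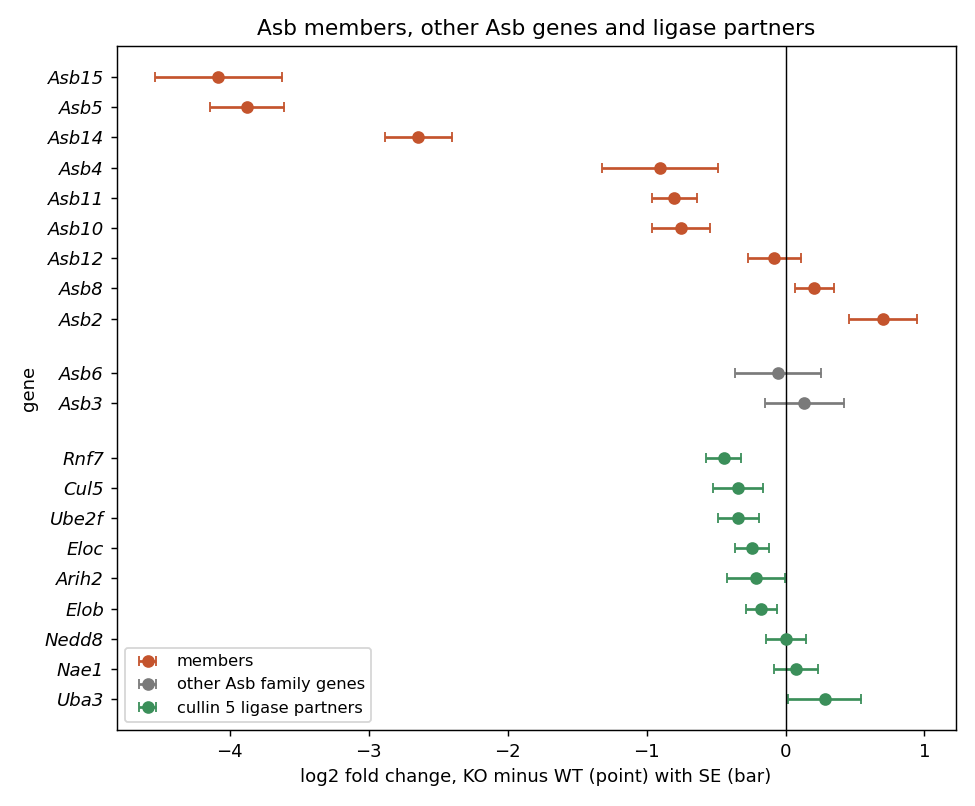
Fitted log2 fold change (KO minus WT, points) with its SE (bars) for the 9 tested Asb members, the 2 other tested Asb genes and the 9 tested partners of the cullin 5 ligase. The members range from -4.08 to 0.70, and the partners from -0.45 to 0.28.

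Among 19 other SOCS box adaptors, 9 were tested, and 1 rose and 0 fell (against 2.98% and 3.28% of all tested genes). The gene that rose was Neurl2, also known as Ozz, a muscle adaptor of cullin 5 that targets embryonic myosin and beta-catenin in the mouse. The WT libraries held 60, 60 and 65 counts and the KO libraries 124, 122 and 130, with every KO library above every WT library. Its level went from 43.1 ± 1.91 to 75.5 ± 0.92 CPM, a log2 fold change of 0.81 (SE 0.15; edgeR adjusted p = 0.0046). The call held in all 14 alternatives (adjusted p 0.000809 to 0.0488). Neurl2 shares exon sequence with Ctsa on the opposite strand, and Ctsa stood at 77.8 ± 3.70 and 82.0 ± 7.43 CPM (log2 fold change 0.07, edgeR adjusted p = 0.841). Cish, an inhibitor of cytokine signalling, had a log2 fold change of -0.75 (edgeR adjusted p = 0.184), and Socs2, Rab40b and Spsb3 had -0.69, -0.70 and -0.23 (0.419, 0.417 and 0.536). The count of all genes called higher, 199, was 101, 83 and 129 without WT replicates 1, 2 and 3.

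Genes for reported ASB substrates were mostly too low to be tested. Of 9 genes 3 passed the filter and edgeR called 0, with 0 at an unadjusted p under 0.05 and 0 called by DESeq2 or limma-voom. Des, encoding the intermediate filament desmin, a reported ASB2 substrate in the heart, stood at 595 ± 73.3 CPM (WT) and 815 ± 382 CPM (KO; log2 fold change 0.45, edgeR adjusted p = 0.57). Its KO mean rested on KO replicate 2, with 2003 counts against 1068 and 943, and without that library the log2 fold change was 0.00487. Flna, encoding filamin A, had 15.9 ± 2.75 and 15.5 ± 4.47 CPM (log2 fold change -0.02, edgeR adjusted p = 0.982), and Id2 a log2 fold change of 0.32 (0.715). RNA counts do not show protein levels, on which the ligase acts.

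Of 15 other muscle ubiquitin ligase genes 11 were tested, and 1 fell and 0 rose (against 3.28% and 2.98% of all tested genes). Fbxo40, a muscle F-box adaptor that targets the insulin receptor substrate IRS1, had 200, 229 and 234 counts in WT and 78, 91 and 107 counts in KO. It went from 154 ± 7.35 to 55.3 ± 6.92 CPM, a log2 fold change of -1.48 (SE 0.15; edgeR adjusted p = 2.15e-05), with no overlap between genotypes, and passed in all 14 alternatives. Fbxo31, Fbxo30, Trim54 and Nedd4 followed by p and did not pass (log2 fold changes 0.65, -0.68, 0.37 and -0.15, edgeR adjusted p = 0.227, 0.231, 0.279 and 0.527). Trim54, a sarcomere-bound relative of MuRF1, passed as higher with library totals (adjusted p = 0.0283, range over 14 alternatives 0.0283 to 0.625). The median log2 fold change of the 11 was -0.24.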

How the data were processed

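For 10 Asb genes, read counts were analysed in 3 WT and 3 KO quadriceps libraries. Per the labels' protocols, TRIzol RNA was made into cDNA by template switching, amplified by PCR and read on a PromethION. The submitters' processing notes name the GRCm38 build, DESeq2 1.6.3 and, with no version, minimap2. Nothing read here names the counter, the annotation release or the use of strand. As deposited, the counts are whole reads for each Ensembl gene and are not normalized. The deposited CPM were not used in any test. Symbols were taken by identifier (22022 of 22036 matched) and positions from GENCODE M21.

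The main test was edgeR 4.0.16 under R 4.3.3 (filterByExpr with a minimum count of 10 and total of 15, TMM, robust quasi-likelihood test, KO against WT, Benjamini-Hochberg over 6680 genes, threshold 0.05). The SE is the log2 fold change divided by the square root of F. CPM use TMM-scaled library sizes, and log2 CPM a prior count of 2. Named genes were all members, other Asb genes and ligase partners, and in other lists the passing genes and up to 4 with the smallest p. The members and lists were chosen with earlier results of these data known. Marker genes, Spcs3 and Ctsa were named after their values were seen. The same fit was tested on simulated counts. Replicate pairs differed by more than sampling noise (chi-square per degree of freedom 2.49 to 6.44). Reads carry no molecular identifiers, so floors cover counting error only. Alternatives were other scalings and filters, DESeq2 1.42.0, limma 3.58.1, robust=FALSE and each library left out. Promoters are RefSeq's for GRCm38.p6.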

Additional observations from a re-analysis of the deposited data

How the results depend on the processing

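The members were chosen for falls in these same libraries, so the steadiness of their direction is partly built in. Of the 9 tested, 6 or 7 were lower in all 14 alternatives. As lower, 4 or 5 had an adjusted p under 0.05. Of all genes, 148 to 362 were called lower in the alternatives, and 219 (3.28% of those tested) in the main test. Without TMM (library totals only), the median of all tested genes moved from 0.017 to 0.251, and the members' median was -0.555. Called higher were 653 genes, among them 1 member (Asb2) and 1 other muscle ligase (Trim54). As higher, 2 members did not overlap, and the share of all tested genes that did so was not computed for library totals. With this general shift, these counts say nothing about the members in particular. The uncalled genes Asb6 (0.184), Elob (0.0653), Arih2 (0.0288), Spsb3 (0.00541), Flna (0.206) and Nedd4 (0.0832) turned positive. With no filter, 362 genes were called lower and 344 higher, 1 member was called higher, 1 partner (Rnf7) was called lower and 2 other SOCS box adaptors were called higher (Neurl2 and Spsb2). Nedd8 turned negative with DESeq2 size factors and DESeq2 (-0.0145 each), upper-quartile scaling (-0.00459) and no filter (-0.00515). Leaving out 1 library at a time gave 83 to 179 genes called higher, 0 to 1 members called higher and a members' median of -0.938 to -0.561. It left 5 to 8 members not overlapping as lower and 0 to 1 as higher (16.3 to 18.5% and 16.6 to 19.2% of all tested genes), and the 8 include the untested Asb18. It also turned the sign of uncalled genes, with log2 fold changes from -0.15 to 0.0804 (Nedd8), -0.288 to 0.125 (Flna), -0.0707 to 0.279 (Asb3), -0.217 to 0.0861 (Asb6), -0.0664 to 0.785 (Id2), -0.0508 to 0.16 (Nae1) and -0.063 to 0.446 (Uba3). The causes were not tested. No paired analysis was possible because the sample titles of the genotypes share only 1 number. Depth limits the members with 10 or fewer counts in a library: Asb18, and in KO Asb15 and Asb4.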

Other observations

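Of 24 family, ligase and substrate genes that were read but too low for the test, 5 had CPM that did not overlap between genotypes (20.8%), against 10.1% of all 7612 such genes and 25.8% of tested genes. They are named here after their values were seen. For Spsb2, a SOCS box adaptor of the SPRY family, the WT libraries held 1, 0 and 0 counts and the KO libraries 8, 5 and 5. Vhl, the von Hippel-Lindau adaptor, had 5, 4 and 7 counts in WT and 12, 10 and 9 in KO. Asb13 had 6 counts in each WT library and 2, 4 and 5 in KO. Jak2, a cytokine receptor kinase and reported ASB2 substrate, had 9, 8 and 9 counts in WT and 3, 5 and 4 in KO. Mib1, a ligase of Notch ligands, had 8, 15 and 9 counts in WT and 5, 5 and 4 in KO. With at most 15 counts in a library, no fold change is given for them.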
